A study of Rattus norvegicus with 6 samples.

Results

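Oxidative phosphorylation is carried out by 5 protein complexes of the inner mitochondrial membrane. Complexes I and II pass electrons from NADH and succinate to ubiquinone, complex III passes them on to cytochrome c, and complex IV hands them to oxygen. The proton gradient built by complexes I, III and IV drives ATP synthesis by complex V. Hepatocytes are rich in mitochondria, and oxidation of fatty acids in the liver feeds electrons into the same chain. Most subunits are encoded in the nucleus, whereas several central ones, among them the catalytic subunits of complex IV, are encoded by mitochondrial DNA.

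The genes described here are the nuclear genes for subunits of complexes I to V, chosen by gene symbol alone (Nduf, Sdh, Uqcr, Cyc1, Cox4 to Cox8 and Atp5 genes). The choice gave 80 genes of 14217 named genes on the array, measured by 89 of 31042 probe sets. Complex I had 33 of these genes, complex II 4, complex III 8, complex IV 19 and complex V 16. Each gene was represented by its probe set with the highest mean signal, called its brightest probe set, and 8 genes had more than 1 probe set. Another 7 probe sets matched through 1 of several symbols and were left out, and with them went Cox7a2, for which no other probe set was named. Among the 80, 1 symbol belonged to a pseudogene (Cox6c-ps1), and no symbol of a mitochondrially encoded subunit was on the list of named genes.

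Liver RNA of 3 groups of congenic BBDR rats was compared on 6 arrays, 2 per group. The groups were BBDR.lyp/lyp rats of 55 days, shortly after hyperglycemia had begun (post-hyperglycemia, Day55 lyp/lyp in the plots), BBDR.lyp/lyp rats of 50 days, before hyperglycemia (pre-hyperglycemia, Day50 lyp/lyp), and diabetes-resistant BBDR.+/+ rats of 55 days (Day55 +/+), each age within a window of 5 days either way. The lyp mutation, a frameshift in the gene Gimap5, causes a severe lack of T cells, and both BBDR.lyp/lyp groups carried it in every cell of the animal, so differences from BBDR.+/+ may include those of the mutation. All groups shared the BBDR background, the regular diet and pathogen-free housing; the labels state that animals were fasted before the liver was taken, and the methods state free access to food. Neither source says whether the 2 arrays of a group came from separate rats, so every p-value measures only the spread between these arrays.

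The deposited values were normalized log2 signals, and a difference of 1 on this scale is a doubling. Hepatocyte markers (7 of 8 measured) averaged 13.8 to 13.9 on all 6 arrays, and 16 of 17 striated muscle markers had mean signals under 6. The exception was the probe set named for Myh1, a myosin heavy chain, with 11.44 and 11.42 in post-hyperglycemia, 11.12 and 11.09 in pre-hyperglycemia, and 11.08 and 10.89 in BBDR.+/+ (0.45 over BBDR.+/+, limma adjusted p = 0.038). It was the 1 of 17 markers called higher there, beside 2.29% of all named genes. Its suffix (_x_at) marks shared sequence, so its signal cannot be assigned to Myh1. Replicate arrays of the subunit genes lay close together, with a median SD of 0.06 in post-hyperglycemia, 0.04 in pre-hyperglycemia and 0.06 in BBDR.+/+. One technical measure set the post-hyperglycemia arrays apart. The control transcripts of the array have probe sets at their 3' and 5' ends, and the 3' minus 5' difference for beta-actin was 2.11 and 2.04 in post-hyperglycemia, 1.51 and 1.32 in pre-hyperglycemia, and 1.36 and 1.12 in BBDR.+/+. The corresponding GAPDH difference was 1.37 and 1.33 in post-hyperglycemia, 0.67 and 0.55 in pre-hyperglycemia, and 0.72 and 0.44 in BBDR.+/+. The part of this difference in the results below was not tested. A fit with it as a covariate is given for some results. Both controls set the post-hyperglycemia arrays apart from all others, so that fit cannot separate the covariate from hyperglycemia. A changed sign or a lost call under it decides nothing about either.

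Transcription of these genes is known to depend on NRF1, on ETS factors such as GABP, and on YY1. RefSeq promoter windows (GRCr8, 250 bases before to 50 after the gene start) were found for 71 of the 80 genes and searched on both strands for GCATGCGC (NRF1), CCGGAAG (ETS) and ATGGCGG (YY1). Matches of different motifs may share bases, and the NRF1 letters can match both strands at once. The NRF1 letters stood in 7 of 71 windows (9.86%) and in 2.66% of all 27457 promoters. The ETS letters stood in 20 (28.2%), against 9.22% of all promoters, and the YY1 letters in 16 (22.5%), against 5.22%. At least 1 motif stood in 30 windows (42.3%), against 15.3% of all promoters. In the 19005 promoters of protein-coding genes the shares were 3.23% (NRF1), 11.2% (ETS) and 6.39% (YY1). Such a match is a run of letters, not a measured binding site. The stretches below are from Uqcrc2, Uqcrc1 and Sdhd, whose values are described most closely here, and from Atp5f1b, the complex V gene with the highest mean, shown for its YY1 match. Each is written 5' to 3' on the strand of the gene with the motif letters, on either strand, in capitals. Within the stretch printed, and leaving aside the rest of the window, Uqcrc2 (chr1:184599113-184599228, plus strand) has 2 ETS matches, Uqcrc1 (chr8:118468174-118468201, plus strand) has 1 NRF1 match, Sdhd (chr8:59850673-59850699, minus strand) has 1 ETS match and Atp5f1b (chr7:1099990-1100016, plus strand) has 1 YY1 match. The stretches end 12, 22, 32 and 42 bases before the gene start in that order.
Uqcrc2: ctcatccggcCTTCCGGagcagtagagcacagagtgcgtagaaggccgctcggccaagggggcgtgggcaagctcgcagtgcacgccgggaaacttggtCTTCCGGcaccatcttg
Uqcrc1: actccaccctGCGCATGCgtagcgcggc
Sdhd: cacctcctgcCTTCCGGttcactcttg
Atp5f1b: gactgtgcctATGGCGGaagctgcccc
Capitals in the Uqcrc2, Uqcrc1 and Sdhd stretches are the reverse complement of the motif, and in Atp5f1b the motif itself.

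To ask what hyperglycemia had changed, post-hyperglycemia was first compared with BBDR.+/+ of the same age. These groups also differed in genotype, which cannot be told apart from hyperglycemia here. No subunit gene passed the test on its brightest probe set (limma over all 31042 probe sets, Benjamini-Hochberg adjusted p under 0.05), so 0 of 80 genes were lower and 0 of 80 higher. Among all named genes 1.24% were lower and 2.29% higher by that rule. At an unadjusted p under 0.05, 4 subunit genes were lower, against 5.47% of all genes, and 8 were higher, against 13.4%. Each difference is the post-hyperglycemia mean less the mean of the other group, as the labels place the arrays. The study's own list of altered genes gives Uqcrc2 without a minus sign, under a heading of BBDR.lyp/lyp versus BBDR.+/+. That direction is opposite to the one found here on both probe sets of the gene. The list does not otherwise state which group was on top of its ratio. The median difference of the 80 genes was 0.03, beside 0.04 over all named genes. The largest sizes were -0.37 (Uqcrc2) and 0.32 (Ndufb5), and 0 of 80 exceeded 0.5 in either direction, a size that 2.59% of all named genes exceeded. That count is for brightest probe sets only, and the dimmer ones of Uqcrc2 and Sdhd, described below, exceeded 0.5. Signals were over 8 on every array for 71 of the 80 genes. The shares of all named genes cover every signal level and were not matched for signal.

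Post-hyperglycemia was then compared with pre-hyperglycemia, with the same post-hyperglycemia arrays as before. These groups also differed in nominal age, which cannot be told apart from hyperglycemia here. Again 0 of 80 genes passed in either direction, beside 0.668% of all named genes lower and 0.703% higher. At an unadjusted p under 0.05, 5 subunit genes were lower, against 5.89% of all genes, and 1 was higher, against 7.52%. The median was -0.03, beside 0.01 over all named genes, and the differences ran between -0.41 (Sdhc) and 0.25 (Atp5mpl). The pre-hyperglycemia and BBDR.+/+ groups differed in genotype and also in nominal age, and these cannot be told apart. In pre-hyperglycemia versus BBDR.+/+, 0 of 80 genes passed, beside 0.218% of all named genes lower and 0.584% higher. There, 0 genes were lower at an unadjusted p under 0.05, against 3.72%, and 1 was higher (Atp5if1), against 8.48%.

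**Figure D1:**
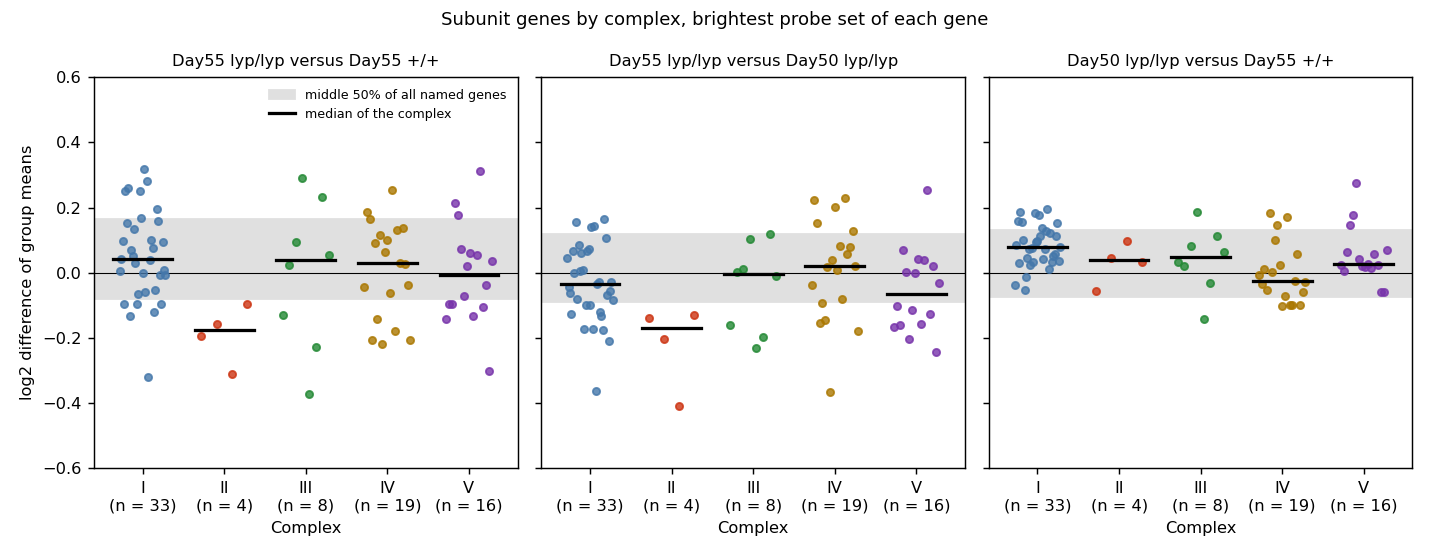
Log2 difference of group means (vertical axis) for the 80 subunit genes by complex (horizontal axis) in the 3 comparisons, 1 point per gene. Black bars are the medians of a complex and the grey band spans the middle 50% of all named genes. All 4 complex II points lie below 0 in both panels with post-hyperglycemia arrays, and the other complexes spread to both sides.

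The precision of the arrays is given here for the brightest probe set of each gene. The 95% intervals of the limma fit, not adjusted for the number of genes, had a median reach of 0.24 to either side. Against BBDR.+/+ they lay within 1.5-fold in both directions for 79 of 80 subunit genes, beside 88.9% of all named genes, and the exception was Uqcrc2. Against pre-hyperglycemia they lay within 1.5-fold for 77 of 80 genes, beside 92.0%, with Sdhc, Ndufb8 and Cox6b2 as exceptions. In pre-hyperglycemia versus BBDR.+/+ all 80 did, beside 93.4%. The shares of all named genes were again not matched for signal. Each of these 80 intervals stayed within 2-fold in all 3 comparisons, whereas the interval of the dimmer Uqcrc2 probe set, given with that gene, lay beyond 2-fold against BBDR.+/+. Smaller changes than these intervals allow could not be detected with 2 arrays per group, and in whole liver fewer cells of a type and less RNA per cell cannot be told apart.

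**Figure D2:**
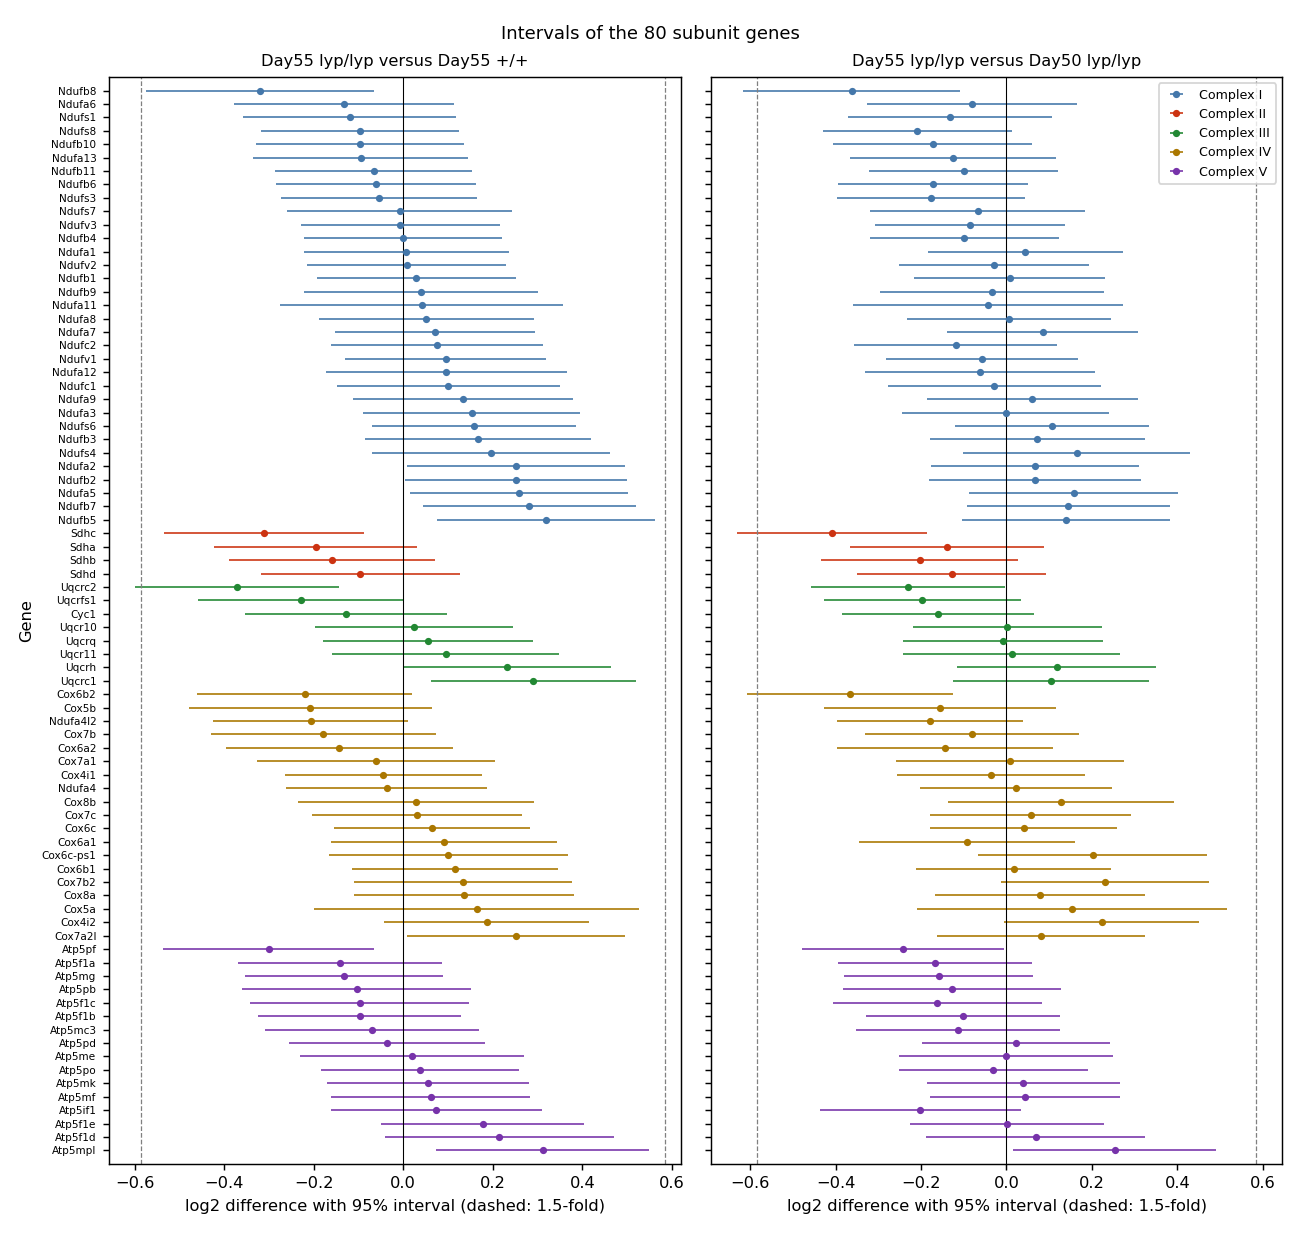
Log2 difference with its 95% limma interval (horizontal axis) for each of the 80 subunit genes (vertical axis, grouped by complex and ordered by the difference from BBDR.+/+). Dashed lines mark 1.5-fold. Uqcrc2 alone crosses a dashed line in the left panel, and Sdhc, Ndufb8 and Cox6b2 do in the right panel.

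Complex II, succinate dehydrogenase, was the complex whose genes all lay on 1 side. It oxidizes succinate in the tricarboxylic acid cycle and has no mitochondrially encoded subunit. Its median difference was -0.18 from BBDR.+/+ and -0.17 from pre-hyperglycemia, and 0.04 between pre-hyperglycemia and BBDR.+/+. The first 2 medians were -0.25 and -0.23 with the mean of a gene's probe sets and -0.31 and -0.29 with the 3' minus 5' covariate. The median signal relative to each gene's mean was -0.15 and -0.08 on the post-hyperglycemia arrays, 0.05 and 0.09 on the pre-hyperglycemia arrays, and 0.11 and -0.00 on the BBDR.+/+ arrays. For all 4 genes both post-hyperglycemia arrays lay below the other 4 arrays. Among all named genes, 18.3% had post-hyperglycemia arrays below both BBDR.+/+ arrays and 20.5% below both pre-hyperglycemia arrays, and none of the 4 genes passed the adjusted test on its brightest probe set.

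Sdhc, which encodes a membrane anchor of the enzyme, had signals of 10.80 and 10.83 in post-hyperglycemia, 11.22 and 11.24 in pre-hyperglycemia, and 11.18 and 11.08 in BBDR.+/+. The post-hyperglycemia arrays were thus the lowest and differed from each other by far less than from the rest. The difference was -0.41 ± 0.10 (SE, n = 2 arrays per group) from pre-hyperglycemia (limma adjusted p = 0.068) and -0.31 ± 0.10 from BBDR.+/+ (adjusted p = 0.112). Its call depended on the settings of the fit. With the top 30% of probe sets by mean signal its limma adjusted p became 0.016 from pre-hyperglycemia and 0.034 from BBDR.+/+. With an intensity trend over all probe sets it became 0.0064 and 0.0196.

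Sdha, the flavoprotein that binds succinate, had signals of 10.63 and 10.68 in post-hyperglycemia, 10.76 and 10.83 in pre-hyperglycemia, and 10.91 and 10.80 in BBDR.+/+. Sdhb, the iron-sulfur subunit, had 11.62 and 11.71 in post-hyperglycemia, 11.84 and 11.90 in pre-hyperglycemia, and 11.88 and 11.76 in BBDR.+/+. Neither difference passed the test, with -0.20 and -0.16 from BBDR.+/+ (limma adjusted p = 0.334 and 0.457) and -0.14 and -0.20 from pre-hyperglycemia.

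Sdhd, the other membrane anchor, whose promoter stretch is printed above, was measured by 2 probe sets. The brightest gave 11.61 and 11.64 in post-hyperglycemia, 11.74 and 11.77 in pre-hyperglycemia, and 11.76 and 11.68 in BBDR.+/+, a difference of -0.10 from BBDR.+/+ (limma adjusted p = 0.667). The dimmer gave 10.37 and 10.31 in post-hyperglycemia, 10.63 and 10.82 in pre-hyperglycemia, and 10.79 and 10.98 in BBDR.+/+. On the dimmer probe set Sdhd fell by 0.54 ± 0.11 (SE) relative to BBDR.+/+ (adjusted p = 0.022), beside 3.26% of all probe sets called lower. Its difference from pre-hyperglycemia was -0.38 (adjusted p = 0.131). That call was lost when any 1 of the 4 arrays was left out (adjusted p between 0.054 and 0.209), and with the 3' minus 5' covariate the difference was 0.08 (adjusted p = 0.978).

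**Figure D3:**
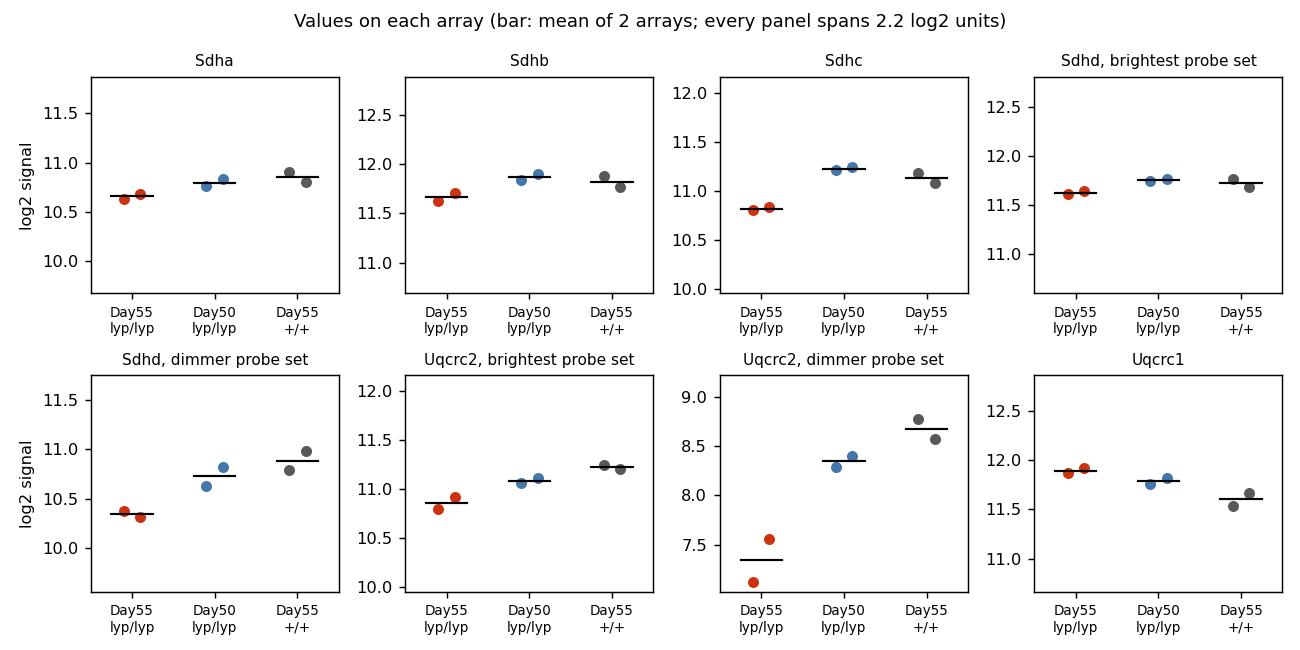
Log2 signal (vertical axis) on each of the 2 arrays of every group (points) with the group mean (bars) for the complex II genes and for Uqcrc2 and Uqcrc1. Post-hyperglycemia points lie lowest in all panels but Uqcrc1, and the gap is widest for the dimmer probe set of Uqcrc2, at 7.12 and 7.56 against 8.57 and 8.78 in BBDR.+/+.

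Complex III genes lay on both sides of 0, and its 2 core proteins, which are relatives of the mitochondrial processing peptidase, had differences of opposite sign. The median was 0.04 from BBDR.+/+ and -0.00 from pre-hyperglycemia. Uqcrc2 had 2 probe sets. The brightest gave 10.79 and 10.92 in post-hyperglycemia, 11.06 and 11.11 in pre-hyperglycemia, and 11.25 and 11.20 in BBDR.+/+. The groups did not overlap, with a difference of -0.37 ± 0.10 (SE) from BBDR.+/+ (limma adjusted p = 0.067) and -0.23 ± 0.10 from pre-hyperglycemia (adjusted p = 0.330). With the top 30% of probe sets by mean signal the adjusted p from BBDR.+/+ became 0.020.

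The dimmer probe set of Uqcrc2 gave 7.12 and 7.56 in post-hyperglycemia, 8.29 and 8.40 in pre-hyperglycemia, and 8.78 and 8.57 in BBDR.+/+. On it Uqcrc2 fell by 1.33 ± 0.14 (SE) relative to BBDR.+/+, 2.52-fold (adjusted p = 0.000906). It fell by 1.005 ± 0.14 relative to pre-hyperglycemia, 2.01-fold (adjusted p = 0.00745), beside 1.46% of all probe sets called lower there. This probe set and the dimmer one of Sdhd were the only 2 of the 89 that passed in any comparison. The intervals of the 2 Uqcrc2 probe sets did not overlap, with -1.65 to -1.01 on the dimmer and -0.60 to -0.14 on the brightest one from BBDR.+/+. The direction was therefore shared and the size was not. For Uqcrc2 the study lists fold changes of 2.0 before and after hyperglycemia onset and 2.5 for BBDR.lyp/lyp versus BBDR.+/+. Those sizes are close to those of the dimmer probe set, but they carry no minus sign. The study's methods average liver samples from 2 times before hyperglycemia, whereas the pre-hyperglycemia arrays here had a single nominal age. The samples behind the 2 sets of values may therefore differ. The reason for the opposite direction was not tested. With the 3' minus 5' covariate the dimmer probe set kept differences of -1.44 and -1.09 but no call (adjusted p = 0.671 and 0.717), and without the second pre-hyperglycemia array its adjusted p from pre-hyperglycemia was 0.055.

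Uqcrc1 had 11.87 and 11.92 in post-hyperglycemia, 11.76 and 11.82 in pre-hyperglycemia, and 11.54 and 11.67 in BBDR.+/+. It was highest on the post-hyperglycemia arrays, by 0.29 ± 0.10 (SE) over BBDR.+/+ (limma adjusted p = 0.146) and by 0.10 over pre-hyperglycemia (adjusted p = 0.717). Uqcrfs1, the Rieske iron-sulfur protein, had 10.95 and 11.07 in post-hyperglycemia, 11.16 and 11.26 in pre-hyperglycemia, and 11.26 and 11.22 in BBDR.+/+, and its differences of -0.20 from pre-hyperglycemia and -0.23 from BBDR.+/+ did not pass. Uqcrq, a small subunit and the complex III gene with the highest mean, had overlapping groups, with 12.45 and 12.39 in post-hyperglycemia, 12.34 and 12.51 in pre-hyperglycemia, and 12.33 and 12.39 in BBDR.+/+.

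Complex I, the NADH dehydrogenase, had the most genes and no called one. Its median was 0.04 from BBDR.+/+, with 12 of 33 genes below 0, and -0.03 from pre-hyperglycemia, with 20 of 33 below 0. The first of these was 0.01 without the first post-hyperglycemia array and -0.02 with the 3' minus 5' covariate. Post-hyperglycemia arrays lay above both BBDR.+/+ arrays for 11 of 33 genes, beside 32.4% of all named genes, and below both for 5, beside 18.3%. Among the accessory subunits, Ndufb5 was highest in post-hyperglycemia, with 11.75 and 11.68, against 11.64 and 11.50 in pre-hyperglycemia and 11.48 and 11.31 in BBDR.+/+. The difference was 0.32 ± 0.11 from BBDR.+/+ (SE; limma adjusted p = 0.136), and -0.27 with the covariate, not called. Ndufa2 likewise had 11.03 and 11.24 in post-hyperglycemia, 11.01 and 11.12 in pre-hyperglycemia, and 10.88 and 10.88 in BBDR.+/+, 0.25 over BBDR.+/+ (adjusted p = 0.239).

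Ndufb8, another accessory subunit of the membrane arm, was lowest in post-hyperglycemia. It had 8.20 and 8.20 in post-hyperglycemia, 8.45 and 8.68 in pre-hyperglycemia, and 8.45 and 8.60 in BBDR.+/+, so both post-hyperglycemia arrays lay below the other 4. The differences were -0.36 ± 0.11 from pre-hyperglycemia (SE; limma adjusted p = 0.152) and -0.32 ± 0.11 from BBDR.+/+ (adjusted p = 0.148), and with the 3' minus 5' covariate they were 0.18 and 0.30, neither called. Ndufs8, an iron-sulfur protein of the electron path, had 10.15 and 10.09 in post-hyperglycemia, 10.33 and 10.33 in pre-hyperglycemia, and 10.19 and 10.24 in BBDR.+/+, a difference of -0.21 from pre-hyperglycemia (adjusted p = 0.366). Ndufa1, the complex I gene with the highest mean, and Ndufc2 differed by no more than 0.12 from either group.

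In pre-hyperglycemia versus BBDR.+/+, 30 of 33 complex I genes had a positive difference, with a median of 0.08, beside 0.02 over all named genes. The sizes were small, between -0.05 and 0.19, and none had an unadjusted p under 0.05. Both pre-hyperglycemia arrays lay above both BBDR.+/+ arrays for 16 of the 33 genes, beside 28.3% of all named genes, and below both for 0, beside 17.7%. The complex I median was 0.03 when arrays were centred on ribosomal protein genes, 0.04 after quantile normalization and 0.10 with median centring, so that its size moved with the scaling. Ndufc2 was among these genes, with 11.17 and 11.27 in pre-hyperglycemia, against 11.08 and 10.97 in BBDR.+/+ (difference 0.19, limma adjusted p = 0.543).

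Complex IV, cytochrome c oxidase, had medians of 0.03 from BBDR.+/+ and 0.02 from pre-hyperglycemia, and the differences ran between -0.37 and 0.25. The medians pool all 19 genes, 7 of which had signals under 6 on every array, and include the pseudogene Cox6c-ps1. No other complex had genes that low. These medians did not keep their sign: the first was -0.04 without the first post-hyperglycemia array, and with the 3' minus 5' covariate they were -0.13 and -0.09. Several of its subunits exist as a general isoform and one known from other tissues, and the array measured members of both kinds. Cox4i1, the general isoform of subunit 4, had 13.06 and 13.01 in post-hyperglycemia, 13.08 and 13.06 in pre-hyperglycemia, and 13.10 and 13.05 in BBDR.+/+. Its partner Cox4i2, known from lung and from hypoxia, had 4.95 and 4.98 in post-hyperglycemia, 4.79 and 4.70 in pre-hyperglycemia, and 4.84 and 4.72 in BBDR.+/+. Cox4i2 was thus highest after hyperglycemia, but by only 0.22 over pre-hyperglycemia (limma adjusted p = 0.352) and 0.19 over BBDR.+/+ (adjusted p = 0.365).

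Cox6a1 had 11.69 and 11.89 in post-hyperglycemia, 11.80 and 11.96 in pre-hyperglycemia, and 11.65 and 11.74 in BBDR.+/+. Its heart and muscle partner Cox6a2 had 4.41 and 4.16 in post-hyperglycemia, 4.41 and 4.46 in pre-hyperglycemia, and 4.48 and 4.38 in BBDR.+/+. Neither had a called difference. Cox8a had 12.40 and 12.32 in post-hyperglycemia, 12.20 and 12.36 in pre-hyperglycemia, and 12.14 and 12.31 in BBDR.+/+, and Cox8b had 4.73 and 4.46 in post-hyperglycemia, 4.39 and 4.55 in pre-hyperglycemia, and 4.56 and 4.58 in BBDR.+/+. Cox7a1, the heart and muscle form of its subunit, stayed between 4.64 and 4.94 on all 6 arrays.

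In all, 7 of the 80 genes had signals under 6 on every array, between 3.19 and 4.98, and all 7 were complex IV isoforms or paralogs (Cox4i2, Cox6a2, Cox6b2, Cox7a1, Cox7b2, Cox8b and Ndufa4l2). The other 73 genes ran between 6.51 and 13.2. No detection calls were used here, so a low signal does not show that a transcript was absent. Cox6b2, the testis form of its subunit, had 4.07 and 3.86 in post-hyperglycemia, 4.31 and 4.35 in pre-hyperglycemia, and 4.18 and 4.19 in BBDR.+/+, and its difference of -0.37 from pre-hyperglycemia lay in this low range (limma adjusted p = 0.128). Ndufa4l2, a hypoxia-induced paralog of Ndufa4, had 4.29 and 4.27 in post-hyperglycemia, 4.47 and 4.45 in pre-hyperglycemia, and 4.50 and 4.47 in BBDR.+/+. The groups were separate, at -0.18 from pre-hyperglycemia and -0.21 from BBDR.+/+, without passing the test. Cox7a2l, which takes part in the assembly of respiratory supercomplexes, had 10.39 and 10.28 in post-hyperglycemia, 10.27 and 10.24 in pre-hyperglycemia, and 10.18 and 9.98 in BBDR.+/+ (0.25 over BBDR.+/+, adjusted p = 0.236, and -0.26 with the covariate, not called).

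Complex V, the ATP synthase, had medians of -0.01 from BBDR.+/+ and -0.07 from pre-hyperglycemia. Atp5f1b, the catalytic beta subunit, had 13.07 and 12.99 in post-hyperglycemia, 13.08 and 13.18 in pre-hyperglycemia, and 13.12 and 13.13 in BBDR.+/+, 0.10 below each of them (limma adjusted p = 0.723 and 0.670). Atp5f1e, the epsilon subunit of the same head, had 12.27 and 12.20 in post-hyperglycemia, 12.22 and 12.26 in pre-hyperglycemia, and 12.11 and 12.01 in BBDR.+/+, and no difference passed.

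Atp5pf, of the stalk that holds the enzyme's head in place, had 10.75 and 10.76 in post-hyperglycemia, 10.90 and 11.10 in pre-hyperglycemia, and 11.05 and 11.07 in BBDR.+/+. It was lowest after hyperglycemia, by -0.30 ± 0.11 from BBDR.+/+ (SE; limma adjusted p = 0.144) and -0.24 from pre-hyperglycemia (adjusted p = 0.320). Atp5mpl, a small membrane subunit, was highest there, with 11.12 and 11.32 in post-hyperglycemia, 10.99 and 10.95 in pre-hyperglycemia, and 10.91 and 10.91 in BBDR.+/+ (differences 0.25 and 0.31, adjusted p = 0.297 and 0.134). Atp5if1, the inhibitor that blocks ATP hydrolysis when the proton gradient collapses, was highest before hyperglycemia. It had 8.42 and 8.25 in post-hyperglycemia, 8.54 and 8.53 in pre-hyperglycemia, and 8.30 and 8.22 in BBDR.+/+, and pre-hyperglycemia exceeded BBDR.+/+ by 0.28 ± 0.11 (SE; adjusted p = 0.341).

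Subunits are often divided into core and accessory ones. The core was taken as a list of 20 of the 80 genes, which held Uqcrc1 and Uqcrc2 and small subunits of the ATP synthase head and stalk, with Cox4i1, Cox5a and Cox5b standing in for complex IV. The median of the core genes was -0.10 from BBDR.+/+, with 14 of 20 below 0, and -0.14 from pre-hyperglycemia, with 16 of 20 below 0. The other 60 genes had medians of 0.05 and 0.00, with 21 and 29 of 60 below 0. Post-hyperglycemia arrays lay below both BBDR.+/+ arrays for 10 of the 20 core genes, beside 18.3% of all named genes, and below both pre-hyperglycemia arrays for 12, beside 20.5%. For all 80 genes the counts were 21 and 28. They lay above both pre-hyperglycemia arrays for 1 core gene and for 16 of the 80, beside 25.6% of all named genes. None of the core genes passed the adjusted test on its brightest probe set, and the difference between core and accessory genes was not tested.

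**Figure D4:**
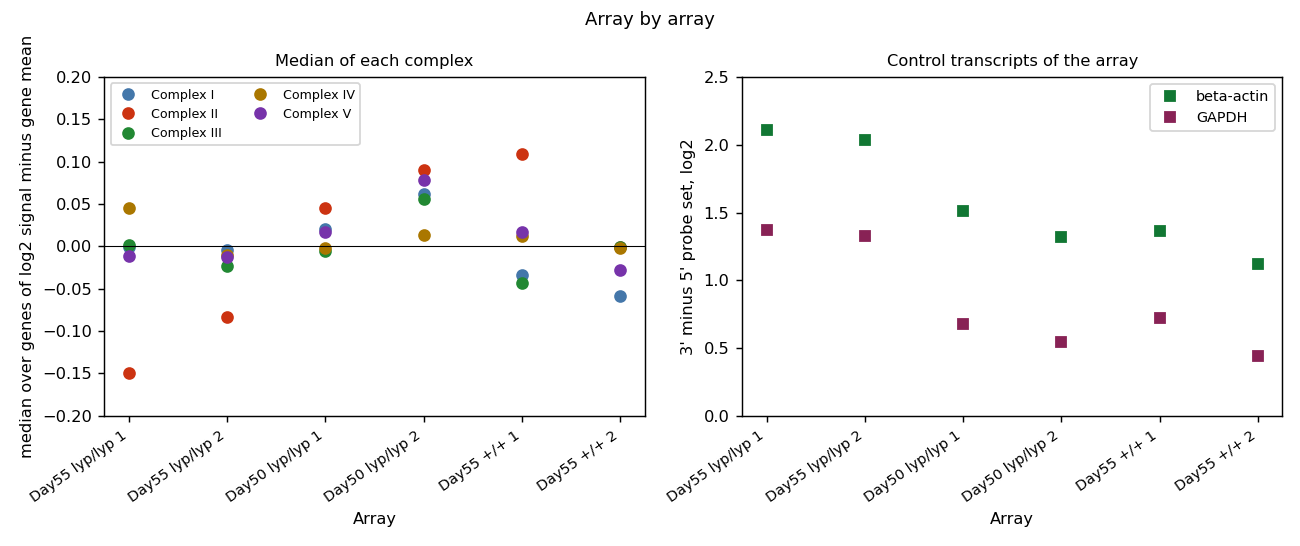
Left, median over the genes of each complex of log2 signal minus the gene's mean (vertical axis) on each of the 6 arrays (horizontal axis). Right, 3' minus 5' log2 difference of the beta-actin and GAPDH control transcripts on the same arrays. Complex II is lowest on the 2 post-hyperglycemia arrays, at -0.15 and -0.08, and these 2 arrays also have the highest beta-actin differences, 2.11 and 2.04.

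Probe sets of 1 gene did not always share a sign. Of the 9 dimmer probe sets, 7 had the sign of the brightest one against BBDR.+/+ and 5 against pre-hyperglycemia. Apart from those of Uqcrc2 and Sdhd, the dimmer probe sets (of Ndufa7, Ndufa9, Ndufv3, Atp5if1, Atp5me and Atp5po) had no called difference.

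The genes that build and regulate the complexes were read beside them. Of 43 measured assembly factors, 0 passed against BBDR.+/+, beside 2.29% of all named genes higher and 1.24% lower, and the median was 0.09, beside 0.04 over all named genes. Against pre-hyperglycemia 1 was higher, beside 0.703%, and the median was -0.00, beside 0.01. It was Ndufaf4, a complex I assembly factor, with 8.66 and 8.80 in post-hyperglycemia, 8.07 and 7.96 in pre-hyperglycemia, and 8.51 and 8.38 in BBDR.+/+. Ndufaf4 rose by 0.71 ± 0.11 (SE) over pre-hyperglycemia (limma adjusted p = 0.00942), while its difference from BBDR.+/+ was 0.28 (adjusted p = 0.174). Of 19 regulators of mitochondrial gene expression, 1 was higher against BBDR.+/+, beside 2.29% of all named genes. Pprc1, a coactivator related to PGC-1, had 7.32 and 7.38 in post-hyperglycemia, 7.23 and 7.08 in pre-hyperglycemia, and 6.89 and 6.91 in BBDR.+/+, a rise of 0.45 ± 0.10 over BBDR.+/+ (SE; adjusted p = 0.034). Ppargc1a, the main coactivator of mitochondrial biogenesis, did not differ by the test, with 6.79 and 6.67 in post-hyperglycemia, 6.57 and 6.86 in pre-hyperglycemia, and 6.98 and 6.91 in BBDR.+/+ (-0.22 from BBDR.+/+, adjusted p = 0.365).

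The 12 measured genes of the tricarboxylic acid cycle had medians of -0.02 from BBDR.+/+ and -0.10 from pre-hyperglycemia, beside 0.04 and 0.01 over all named genes. Of these 12, 1 was called lower against BBDR.+/+, beside 1.24% of all named genes. Suclg2, a subunit of the GTP-forming succinyl-CoA ligase, which makes the succinate that complex II oxidizes, had 10.67 and 10.83 in post-hyperglycemia, 11.11 and 11.11 in pre-hyperglycemia, and 11.32 and 11.20 in BBDR.+/+. Suclg2 fell by 0.51 ± 0.11 (SE) relative to BBDR.+/+ (limma adjusted p = 0.022), and its difference from pre-hyperglycemia did not pass (adjusted p = 0.126). The other listed subunits of succinyl-CoA ligase did not share this fall. From BBDR.+/+, Sucla2 differed by 0.22 and Suclg1 by -0.03 (adjusted p = 0.261 and 0.932). Of 73 mitochondrial ribosomal protein genes, 1 was lower (Mrpl50, -0.58) and 1 higher (Mrps5, 0.47) against BBDR.+/+ (adjusted p = 0.029 and 0.025), beside 1.24% of all named genes lower and 2.29% higher. Their median there was 0.09, beside 0.04 over all named genes, with 52 of 73 above 0. Post-hyperglycemia arrays lay above both BBDR.+/+ arrays for 32 of them, beside 32.4% of all named genes, and below both for 8, beside 18.3%. Against pre-hyperglycemia 1 was higher (Mrps2, 0.52, adjusted p = 0.026), beside 0.703%. Mrps2 was lowest in pre-hyperglycemia, with 8.67 and 8.65, against 8.87 and 8.85 in BBDR.+/+.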

How the data were processed

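Liver RNA of 6 samples was measured on Affymetrix RG230 2.0 arrays, with labelling by a 3' IVT Express kit in the labels and a two-cycle kit in the methods. Signals were extracted by the authors in Expression Console (Affymetrix), then normalized in Partek Genomic Suite and deposited as log2 values, 1 per probe set and array. Neither the versions nor the algorithm of that normalization is given in the sources used here. Array brightness and the number of arrays limit the precision. The 57 Affymetrix control probe sets were set aside, which left 31042, of which 20826 had 1 gene symbol in the platform annotation, which can be old. All 80 subunit genes were found in RefSeq (GRCr8) by Entrez identifier with 0 changed symbols, on 20 chromosomes. 0 columns were left unmapped.

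Groups were fitted with limma 3.58.1 (R 4.3.3), 1 mean per group over all 6 arrays, no signal filter and no replicate block, with 3 residual and 7.70 prior degrees of freedom. p-values were Benjamini-Hochberg adjusted over all 31042 probe sets, with a threshold of 0.05. With 2 arrays against 2, an exact permutation test cannot go below p = 0.333, so none was used. The fits were tested on simulated data with known changes. Gene lists were described by counts and medians, not tested. Genes were named by a rule that took, per complex, the 2 smallest p-values of each comparison and the highest mean, all genes with a called probe set, Uqcrc2 and the isoform pairs of complex IV; 29 genes met it. Genes of the other lists were named where they passed the test, except the called Kupffer cell markers, which were only counted. Ppargc1a, Etfdh, Slc25a5 and Ucp2 did not pass and were named after their values were seen. Sucla2, Suclg1, Cela1, Itgam and Lyz2 did not pass either and were named to stand beside called genes of their lists. The members and lists were chosen with earlier results of these data known. The alternatives were other scalings, filters on mean signal, the methods' t-test (their threshold and Benjamini-Hochberg), a rank product (share of false positives under 0.20, 100 permutations), other limma settings, other choices of probe set, a 3' minus 5' covariate and leaving out each array. Figures and other steps used Python 3.11.15, pandas 2.3.3 and matplotlib 3.10.9.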

Additional observations from a re-analysis of the deposited data

How the results depend on the processing

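The count of subunit genes called on the brightest probe set was 0 in the 3 comparisons and stayed 0 under the 3 scalings, the methods' t-test with Benjamini-Hochberg adjustment, the rank product, the fit to the arrays of 1 comparison, the replicate block (0 in each comparison), the choice of probe sets without a suffix for shared sequence, the 3' minus 5' covariate and each left-out array (0 to 0). Against BBDR.+/+ it became 1 with the top 60% of probe sets by mean (Uqcrc2), 5 with the top 30%, 7 with an intensity trend, 1 with the mean of a gene's probe sets (Uqcrc2) and 5 by the methods' t-test unadjusted. Against pre-hyperglycemia these settings gave 1, 1, 1, 2 and 9 genes, Sdhc among them each time. For pre-hyperglycemia versus BBDR.+/+ the unadjusted t-test gave 5. The share of all named genes called under these settings was not computed, so these counts cannot be read as a result about the subunit genes. A filter on mean signal changed both the number of probe sets adjusted for and the spread that limma estimates across probe sets. The cause of the gain under the filters and under the intensity trend was not tested.

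The median over the 80 genes was too close to 0 to keep its sign. Against BBDR.+/+ it became -0.0311 with the covariate, and ran between -0.00936 (without the first post-hyperglycemia array) and 0.0288 over the left-out arrays. Against pre-hyperglycemia it became 0.0174 after quantile normalization, 0.00395 with ribosomal protein centring and -0.11 with the covariate. Between pre-hyperglycemia and BBDR.+/+ it became 0.0652 with median centring, 0.01996 after quantile normalization and -0.00364 with ribosomal protein centring. No scaling moved the median of all named genes by over 0.1. The 4 complex II genes stayed below 0 in both comparisons with post-hyperglycemia under the 3 scalings.

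The covariate differs between post-hyperglycemia and the other groups, so a fit with it cannot separate it from hyperglycemia. In that fit 8 single differences changed sign. Against BBDR.+/+ they became -0.24 (Ndufa5), -0.27 (Ndufb5), -0.11 (Ndufb7), 0.30 (Ndufb8), 0.0835 (Sdhd, dimmer probe set) and -0.26 (Cox7a2l), and against pre-hyperglycemia 0.18 (Ndufb8) and 0.0166 (Atp5pf); none of them was called. The dimmer Uqcrc2 probe set kept its direction in every alternative and lost its call by the methods' t-test with adjustment (0.442 and 0.553), with the covariate and, against pre-hyperglycemia, without 1 array. The dimmer Sdhd probe set also lost its call by that t-test (0.442), by the rank product (share of false positives 0.306) and with the mean of the gene's probe sets (0.061).

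Same-numbered arrays deviated together only weakly (correlations 0.11, 0.14 and 0.26 over probe sets), and 2 pairs do not show that the numbers pair the samples. The 2 arrays per group limit what could be detected.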

Other observations

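Carriers that serve the chain were measured by 10 of 11 listed genes, and none passed the adjusted test. The median was -0.16 from BBDR.+/+, where 8 lay below 0, and -0.12 from pre-hyperglycemia, where 9 did, beside medians of 0.04 and 0.01 over all named genes. Etfdh, which passes electrons from fatty acid oxidation to ubiquinone, had 10.80 and 10.81 in post-hyperglycemia, 11.12 and 11.01 in pre-hyperglycemia, and 11.12 and 11.003 in BBDR.+/+ (-0.25 from BBDR.+/+, limma adjusted p = 0.208). Slc25a5, an ADP/ATP carrier, had 12.16 and 12.05 in post-hyperglycemia, 12.14 and 12.24 in pre-hyperglycemia, and 12.34 and 12.39 in BBDR.+/+ (-0.26 from BBDR.+/+, adjusted p = 0.193). Ucp2, an uncoupling protein that in liver is known from Kupffer cells, had the opposite sign, with 8.65 and 8.86 in post-hyperglycemia, 8.73 and 8.87 in pre-hyperglycemia, and 8.43 and 8.46 in BBDR.+/+ (0.31 over BBDR.+/+, adjusted p = 0.154). These genes were picked for description after their values were seen.

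Idh2, the NADP-dependent isocitrate dehydrogenase of mitochondria, was the 1 listed gene of the tricarboxylic acid cycle called between pre-hyperglycemia and BBDR.+/+. Beside it, 0.584% of all named genes were called higher there. Idh2 had 9.998 and 10.10 in pre-hyperglycemia, against 9.54 and 9.37 in BBDR.+/+, and 9.84 and 9.78 in post-hyperglycemia. Pre-hyperglycemia exceeded BBDR.+/+ by 0.59 ± 0.11 (SE, limma adjusted p = 0.039). Kupffer cell markers (6 of 8 measured) averaged 10.64 on both post-hyperglycemia arrays, 10.50 and 10.55 on the pre-hyperglycemia arrays, and 10.23 and 10.25 on the BBDR.+/+ arrays, and 4 of 6 were called higher in post-hyperglycemia than in BBDR.+/+, beside 2.29% of all named genes. Neutrophil and monocyte markers (5 of 5 measured) averaged 7.30 and 7.33 in post-hyperglycemia, 7.63 and 7.52 in pre-hyperglycemia, and 6.85 and 6.83 in BBDR.+/+. Against BBDR.+/+, 2 of 5 were called higher (S100a8 and S100a9, 1.29 and 1.46), beside 2.29% of all named genes. Cd14 and Itgam lay below 0 there (-0.53 and -0.13) and Lyz2 above (0.29), none of these called. Against pre-hyperglycemia 1 of 5 was called lower (Cd14, -0.99), beside 0.668% of all named genes. Erythroid markers (4 of 6 measured) averaged 7.77 and 7.83 in post-hyperglycemia, 8.09 and 8.11 in pre-hyperglycemia, and 7.77 and 7.80 in BBDR.+/+. Their median was -0.36 from pre-hyperglycemia, with 0 of 4 called by limma. At an unadjusted limma p under 0.05, 3 of them were lower than in pre-hyperglycemia, beside 5.89% of all named genes. Of 10 pancreatic acinar markers, 1 was called higher than in pre-hyperglycemia (Cpa1, 1.09), beside 0.703% of all named genes. In that comparison 6 of the 10 lay below 0, among them Cela1 (-0.26, not called). Cpa1 was lowest in pre-hyperglycemia, with 7.01 and 7.35, against 8.29 and 8.27 in post-hyperglycemia and 8.15 and 7.75 in BBDR.+/+. Its difference of 0.33 between post-hyperglycemia and BBDR.+/+ was not called. The mean of the 10 stayed between 5.23 and 5.36 on the 6 arrays. The part of these cell types in the subunit values was not tested. Hepatocyte markers had a median difference of 0.00 in both comparisons with post-hyperglycemia, with 0 of 7 called.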
